A study of Caenorhabditis elegans with 18 samples.

Results

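The comparison described here is that of hira-1(-) larvae with N2 larvae at the fourth larval stage (L4) of the nematode Caenorhabditis elegans, across all genes. Of the 18 samples of the series, 4 belong to it: replicates 1 and 2 of hira-1(-) at L4 and replicates 1 and 2 of N2 at L4. They were chosen by the names of their columns in the deposited table of estimated counts. The hira-1(-) animals are strain MT23643 and carry the allele hira-1(gk835598), and N2 is the wild-type laboratory strain. Both were kept at 20 °C on plates seeded with Escherichia coli OP50, and poly(A)-enriched RNA of whole animals was sequenced in read pairs. The series also holds 2 other stages, and the third L4 replicate of each genotype was not analysed here. The labels name no second mutation, and an effect of any further strain difference and an effect of the allele cannot be told apart. Separate cultures are not stated for the replicates. The p-values therefore reflect the spread of these 4 samples alone, part or all of which may be technical.

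HIRA is a conserved chaperone that places the histone variant H3.3 into nucleosomes outside DNA replication, while other chaperones place the canonical histone H3 during replication. In the worm, H3.3 is encoded by a small family of his genes. L4 is the last larval stage: the hermaphrodite germ line makes its sperm and then switches to oocytes, the vulva forms, and the epidermis builds the adult cuticle before the last molt. RNA of whole larvae at this stage therefore mixes soma with a growing germ line, and fewer cells of a type cannot be told apart from less RNA per cell in such samples.

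The libraries were of like depth, with 26994537 and 27590283 estimated counts in hira-1(-) and 28061446 and 27086810 in N2. Spearman correlations across genes were 0.997 between the hira-1(-) replicates, 0.995 between the N2 replicates and 0.955 to 0.958 between genotypes. The N2 replicates were less alike than the hira-1(-) replicates. Of 11262 genes with a mean of at least 5 CPM in either genotype, 7 differed at least 2-fold between the hira-1(-) replicates and 28 between the N2 replicates. CPM is the estimated count scaled to a TMM-adjusted library size of 1000000 (a scaling that sets the bulk of genes to no change). All levels below are CPM and are compared between genotypes. CPM is not per length, so an order of genes by CPM is one of read counts and not of transcript levels.

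The hira-1 transcript (K10D2.1) was measured first. It stood at 23.9 and 25.6 CPM in hira-1(-), against 40.3 and 35.8 CPM in N2. The genotypes did not overlap, and the transcript was lower in the mutant by edgeR's quasi-likelihood test (log2 fold change -0.62, SE 0.08, Benjamini-Hochberg adjusted p = 3.5e-04). The labels do not say how the allele alters the transcript, so its presence does not go against them. Among genes for H3.3, his-72 (Y49E10.6) had 390.3 and 383 CPM in hira-1(-) and 132 and 145 CPM in N2, a rise of 1.48 on the log2 scale (SE 0.07, adjusted p = 1.6e-06). His-74 (W05B10.1) had 101 and 95.1 CPM in hira-1(-) and 69.2 and 67.5 CPM in N2 (log2 fold change 0.52, adjusted p = 1.6e-04). Of the other H3.3 genes, his-71 (log2 fold change 0.09, adjusted p = 0.24) and his-70 (-0.16 and, with library totals in place of TMM, 0.08; adjusted p = 0.15) were not called, and his-69 was too low to test. Outside H3.3, cpar-1 (F54C8.2), a close relative of the centromeric histone gene hcp-3, stood at 16.9 and 15.4 CPM in hira-1(-) and at 5.16 and 5.24 CPM in N2 (log2 fold change 1.63, SE 0.12). Both libraries of the mutant lay above both N2 libraries for his-72, his-74 and cpar-1.

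In all, 9199 of 16043 genes passed an adjusted p of 0.05, which is 57.3% of the genes tested. Of these, 4644 were higher in hira-1(-) (28.9% of those tested) and 4555 were lower (28.4%). Many changes were small, and 4064 of the 9199 called genes changed by less than 1.5-fold. At least 2-fold changes numbered 1520 higher (9.47% of genes tested) and 1144 lower (7.13%). Large changes leaned to higher values: 140 genes were at least 16-fold higher and 37 at least 16-fold lower, and 73 were at least 32-fold higher and 14 at least 32-fold lower, where fitted folds of genes near 0 in a genotype depend on the fit. For 80.6% of genes both libraries of one genotype lay beyond both of the other. The even split of the calls rests on the scaling. TMM put the median gene at -0.01, and library totals moved it to 0.23 and the share of higher calls from 50.5% to 72.1%. Log2 fold changes below are relative to the TMM centre, and a value within about 0.23 of 0 has no settled direction.

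**Figure D1:**
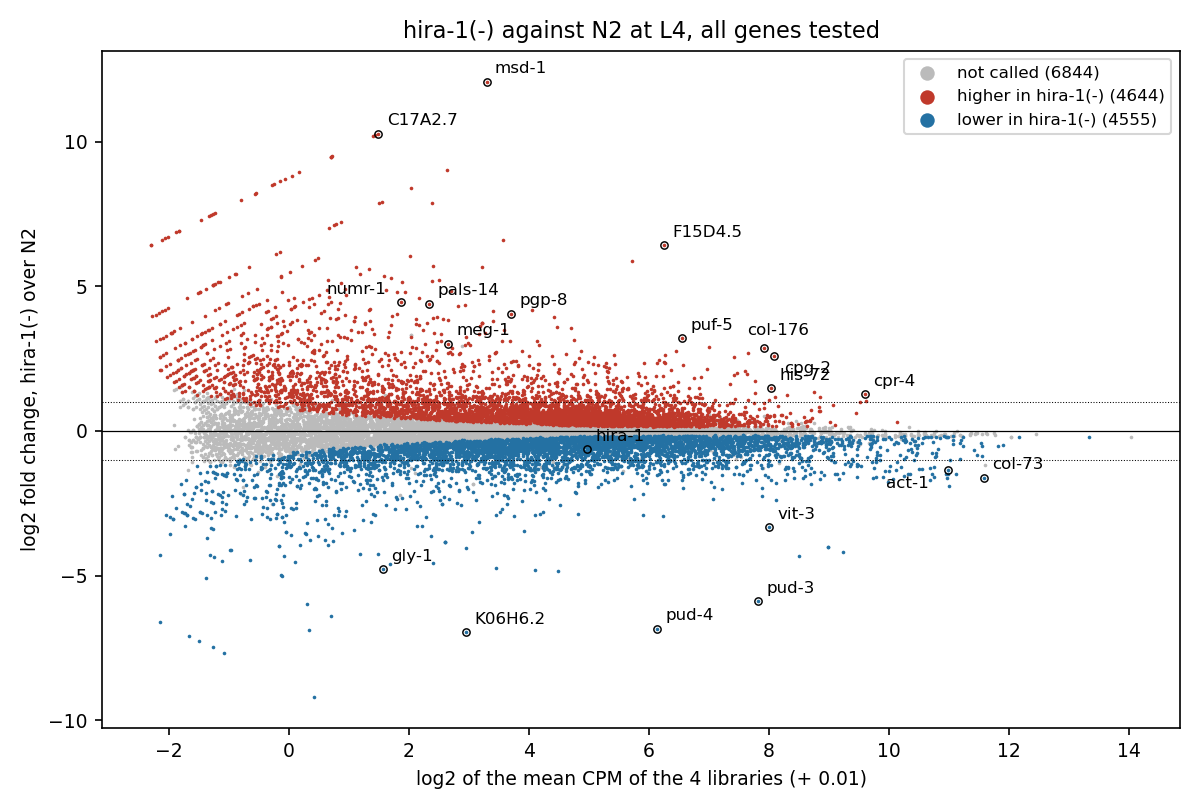
Each point is 1 of the 16043 genes tested, placed by the log2 of its mean CPM over the 4 libraries (horizontal) and its log2 fold change of hira-1(-) over N2 (vertical); dotted lines mark 2-fold changes, and diagonal streaks at the left are genes with few or no counts in N2. The 4644 genes called higher reach further from 0 than the 4555 called lower, and pud-4, pud-3, puf-5 and his-72 are among the labelled genes.

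Genes were grouped into 59 lists of known function, 57 of them with tested members. The lists and their members were chosen with earlier results of these data known, so their counts describe these data and are not independent tests. None of the 12 listed genes of the mitochondrial genome was matched. Most lists are given below by how many tested members were called, and many also by the median log2 fold change of members. These values are to be read beside 28.9% higher, 28.4% lower and a median of -0.01 over all genes. With library totals the median over all genes was 0.23, and list medians rose by a like amount. Those of endoplasmic reticulum stress, fatty acid synthesis and the somatic gonad were then -0.06, -0.06 and -0.05. That of the TCA and glyoxylate cycles was -0.10.

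**Figure D2:**
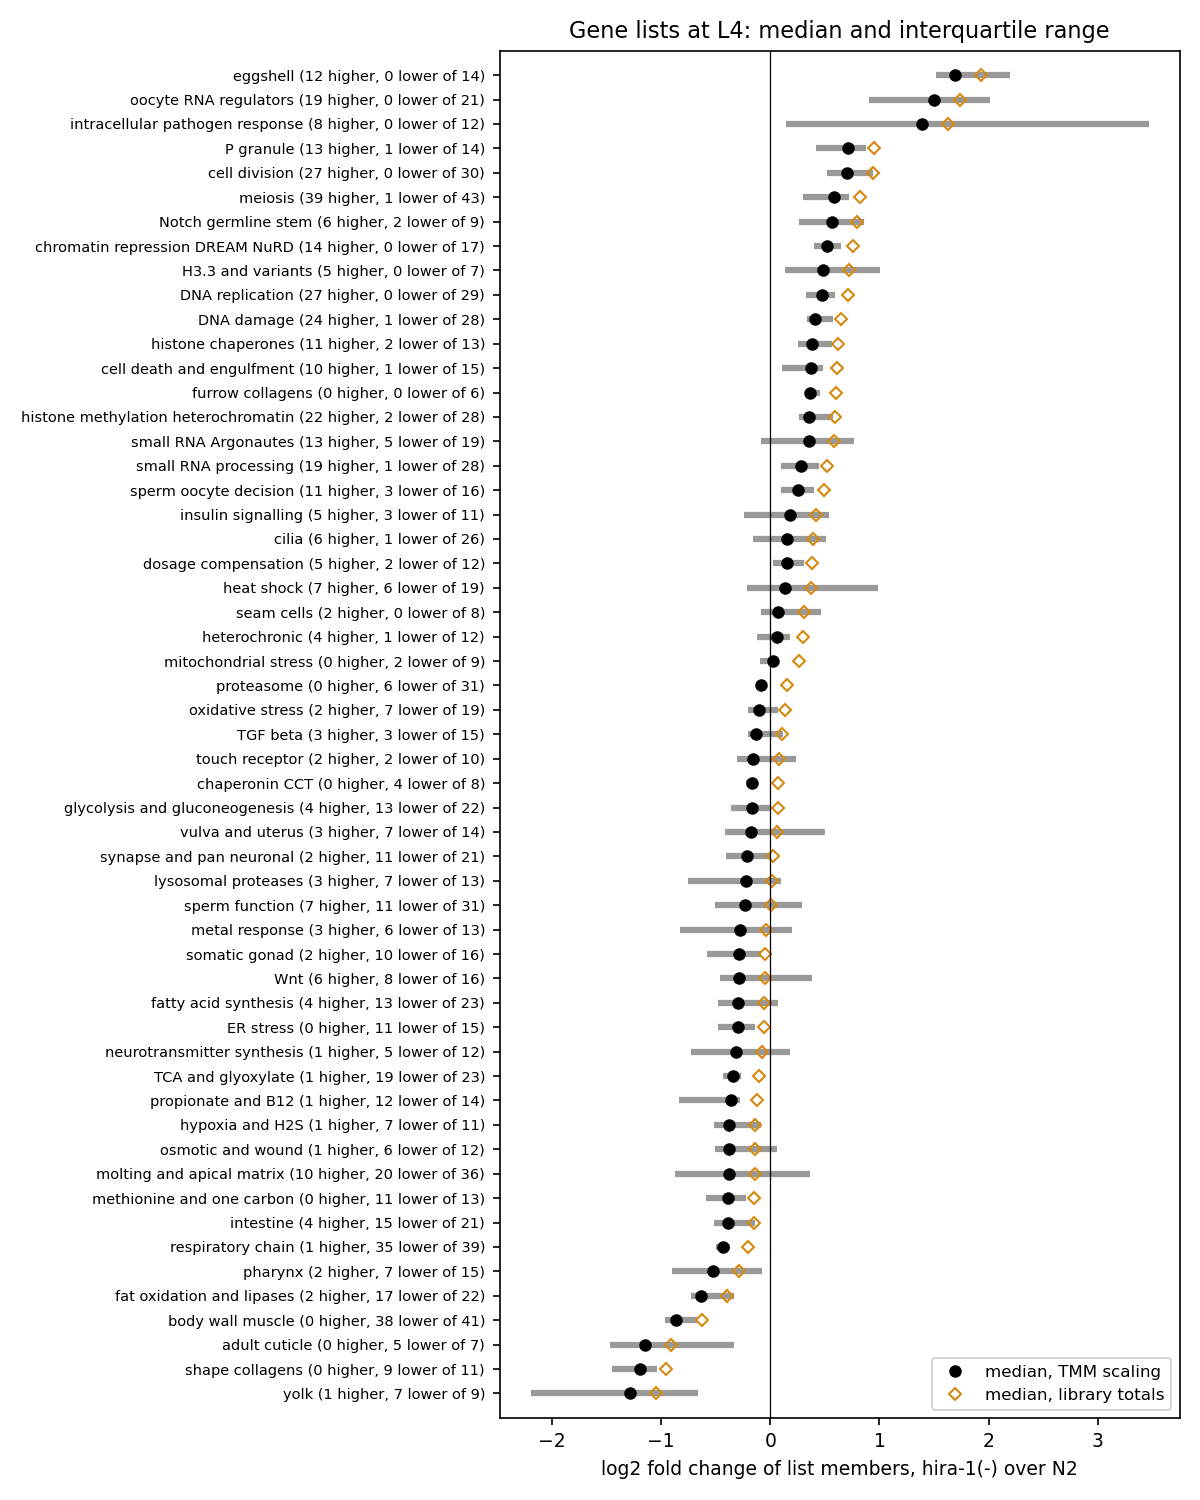
Each row is a gene list with at least 5 tested members, with the number called higher and lower in hira-1(-); the dot is the median log2 fold change with TMM scaling, the bar the interquartile range over members, and the open diamond the median with library totals. Eggshell and oocyte lists lie at the top with medians of 1.69 and 1.499, and yolk and body shape collagens at the bottom with -1.28 and -1.197.

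Oocyte genes were higher in hira-1(-) larvae. Of 21 tested RNA-binding regulators of oocytes and early embryos, 19 rose and none fell (median 1.499), and of 14 eggshell genes 12 rose and none fell (median 1.69). The oocyte Pumilio gene puf-5 (F54C9.8) stood at 169.7 and 168 CPM in hira-1(-) and 19.2 and 17.6 CPM in N2 (log2 fold change 3.20, adjusted p = 5.6e-08). The gene pos-1 (F52E1.1), a zinc-finger protein of the early embryo, had 102 and 99.6 CPM in hira-1(-) and 22.7 and 17.3 CPM in N2 (log2 fold change 2.33). Spn-4 (ZC404.8), an RNA-binding protein that acts on maternal mRNAs, had 148 and 151 CPM in hira-1(-) and 53.7 and 52.2 CPM in N2 (log2 fold change 1.499). For each of these the genotypes were clearly apart. In the eggshell list, the chondroitin proteoglycan gene cpg-2 (B0280.5) reached 459 and 473 CPM in hira-1(-), against 84.5 and 70.4 CPM in N2 (log2 fold change 2.59, adjusted p = 8.8e-07). Egg-5 (R12E2.10), a pseudophosphatase of the egg-to-embryo transition, had 59.9 and 62.9 CPM in hira-1(-) and 18.4 and 18.9998 CPM in N2 (log2 fold change 1.71). The largest rises of the eggshell list (cpg-2, cpg-1, egg-1 and cpg-3) lay between 2.35 and 2.59. Perm-4 was not called (0.23, adjusted p = 0.17; 0.44 without N2 replicate 1). Among the 10 genes with the highest CPM that rose at least 2-fold were also cgh-1 (962 and 1000.0 CPM in hira-1(-), 513 and 463 CPM in N2), a DEAD-box helicase that guards maternal mRNAs, the Y-box gene cey-2 (log2 fold change 1.18) and the centrosome scaffold gene spd-5 (1.23). Rme-2 (T11F8.3), the receptor by which oocytes take up yolk, had 165 and 172 CPM in hira-1(-) and 52.5 and 42.9 CPM in N2 (log2 fold change 1.82).

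**Figure D3:**
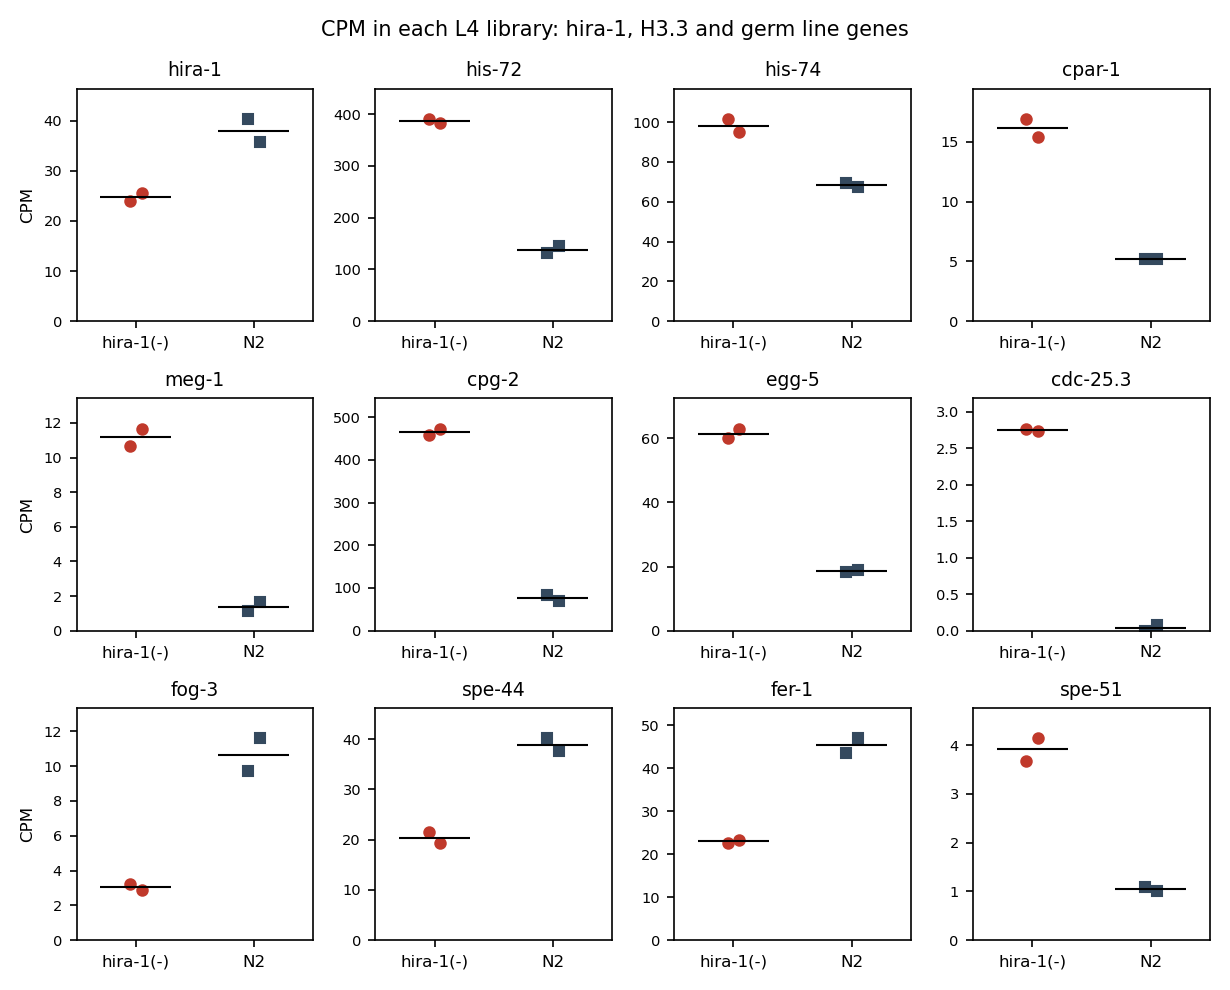
CPM of 12 genes in each library, with hira-1(-) at the left (circles) and N2 at the right (squares) of each panel; horizontal bars are means of 2 libraries, and each vertical axis starts at 0. Hira-1, fog-3, spe-44 and fer-1 are lower in hira-1(-), the other 8 genes are higher, and no panel has overlapping genotypes.

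Genes of germ cell structure, meiosis and division rose as well, by smaller amounts. Of 14 P granule genes (P granules are RNA-protein bodies that mark germ cells), 13 rose (median 0.71). The embryonic P granule gene meg-1 (K02B9.1) had 10.7 and 11.7 CPM in hira-1(-) and 1.13 and 1.64 CPM in N2 (log2 fold change 3.01, SE 0.19), and meg-3 was at 2.69. The Vasa-related helicase gene glh-2 rose by 1.12 on the log2 scale. Of 43 meiosis genes, 39 rose (median 0.58). Lab-1 (C03D6.6), which protects cohesion on the long arms of paired chromosomes, had 24.4 and 24.1 CPM in hira-1(-) and 7.57 and 6.72 CPM in N2 (log2 fold change 1.76, adjusted p = 3.9e-06). The crossover genes zhp-2 (1.11) and xnd-1 (0.92) followed, and the range over the list ran from -0.34 to 1.76. Of 30 cell division genes 27 rose and none fell (median 0.70), and of 29 replication genes 27 rose and none fell (median 0.48). Cyclin genes were among them, with cyb-3 at 151 and 156 CPM in hira-1(-) and 68.7 and 68.2 CPM in N2 (log2 fold change 1.17) and cya-1 at 1.084. The phosphatase gene cdc-25.3 (ZK637.11) stood apart: it had 2.76 and 2.74 CPM in hira-1(-), and 0 and 0.0800 CPM in N2. With 2 counts over both N2 libraries, the hira-1(-) level was 69.9 times that of N2 (exact 95% interval 19 to 582, counting error only). No other member of that list changed 4-fold.

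Germ line stem cell and DNA damage genes were also mostly higher. Of 9 Notch pathway and germ line stem cell genes 6 rose (median 0.56). The Notch receptor glp-1, which keeps germ line stem cells, had 97.5 and 101 CPM in hira-1(-) and 53.4 and 55.6 CPM in N2 (log2 fold change 0.86), and its target sygl-1 rose by 1.24. The Notch ligand gene apx-1 rose by 1.16. Of 28 DNA damage and repair genes, 24 rose (median 0.41). In this list egl-1 (F23B12.9), which starts programmed cell death, was at 1.19 and 0.969 CPM in hira-1(-), against 0.0776 and 0.0400 CPM in N2 (log2 fold change 4.09, SE 0.52, adjusted p = 2.7e-04). The polymerase theta gene polq-1 followed at 0.96. Of 15 cell death and engulfment genes 10 rose (median 0.38), and the caspase gene ced-3 had 61.97 and 66.8 CPM in hira-1(-) and 31.5 and 30.3 CPM in N2 (log2 fold change 1.06). These levels of egl-1 are low, and its groups did not overlap.

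Small RNA genes moved in both directions. Argonautes are the proteins that carry small RNAs, and of 19 tested, 13 rose (median 0.35). The Piwi gene prg-1 stood at 613 and 625 CPM in hira-1(-) and 246 and 247 CPM in N2 (log2 fold change 1.33, adjusted p = 1.4e-06), the nuclear Argonaute gene hrde-1 at 375 and 382 CPM in hira-1(-) and 172 and 165 CPM in N2 (1.17), and alg-5 rose by 1.07. Sago-1 fell (log2 fold change -0.79), with 52.04 and 50.9 CPM in hira-1(-) and 89.7 and 88.7 CPM in N2. The count of Argonautes that fell was 5, and 3 without hira-1(-) replicate 1 or without hira-1(-) replicate 2. Of 28 genes that process or move small RNAs, 19 rose (median 0.28). Among them nrde-2, a factor of nuclear RNA interference, had 288 and 286 CPM in hira-1(-) and 142 and 149 CPM in N2 (log2 fold change 0.98), and the nucleotidyltransferase gene rde-3 rose by 0.91. The importer of silencing RNA, sid-1, rose by 0.64, while the kinase gene sid-3, also needed for import, fell by 0.74 on the log2 scale.

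Sperm genes moved in both directions, and most genes of the msp, ssp and nspd classes were higher. Fog-3 (C03C11.2), which commits germ cells to sperm, had 3.21 and 2.87 CPM in hira-1(-) and 9.70 and 11.6 CPM in N2 (log2 fold change -1.81, SE 0.15, adjusted p = 2.9e-05). Its partner fog-1 had 12.285 and 12.96 CPM in hira-1(-) and 7.99 and 8.12 CPM in N2, in the other direction (log2 fold change 0.65). The sex determination gene fem-3 (1.18) and the translational regulator gld-3 (0.90) rose. Over the 16 genes of the sperm or oocyte decision 11 rose and 3 fell (median 0.26), and 6 rose without hira-1(-) replicate 1. Spe-44 (C25G4.4), a transcription factor of sperm formation, had 21.4 and 19.4 CPM in hira-1(-) and 40.2 and 37.6 CPM in N2 (log2 fold change -0.93, adjusted p = 3.3e-05). Fer-1, a ferlin needed for sperm organelle fusion, fell by 0.98 and the protease inhibitor gene swm-1, which delays sperm activation, by 1.29 on the log2 scale. In the other direction spe-51, needed by sperm for fertilization, had 3.69 and 4.14 CPM in hira-1(-) and 1.09 and 1.00 CPM in N2 (1.90). Over 31 sperm function genes 11 fell (6 without hira-1(-) replicate 1) and 7 rose, and the median of -0.23 became 0.0038 with library totals. Genes of the major sperm protein class msp, the cytoskeletal protein of nematode sperm, rose in 28 of 32 cases and fell in 2 (median 0.98). Of the ssp class (sperm-specific proteins of the same fold) 10 of 11 rose and none fell (median 1.19), led by ssp-19 (10.1 and 8.89 CPM in hira-1(-), 1.44 and 1.28 CPM in N2). Of the nspd class of nematode-specific peptides 9 of 9 rose (median 0.84). Members of the msp and nspd classes are near-identical, so reads may be divided between copies by the counting model.

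Other tissues that a larva may hold were checked with their own markers. Genes first switched on in the early embryo were at or near 0: of 14 such genes, 2 had no count in any library, and the summed level was 1.02 and 1.14 CPM in hira-1(-) and 0.757 and 0.958 CPM in N2. Markers of male tissue were also low, with a summed level of 9.79 and 10.996 CPM over 9 genes in hira-1(-) and 14.95 and 16.39 CPM in N2. Most of each sum was mab-3 (7.75 and 8.59 CPM in hira-1(-), 12.5 and 14.2 CPM in N2). It was the only 1 of 4 tested markers called (log2 fold change -0.71, adjusted p = 0.0012). Of 16 genes of the somatic gonad list 10 fell (fewer without hira-1(-) replicate 1 or without hira-1(-) replicate 2; median -0.28). The sheath innexins inx-8 and inx-9 fell by 0.68 and 0.58 on the log2 scale. The list also holds the germ line innexins of the same junctions, inx-14 and inx-22, so it is not of somatic genes alone. These were its only 2 members called higher, by 0.64 and 1.204. Inx-22 had 26.9 and 29.2 CPM in hira-1(-) and 13.3 and 10.9999 CPM in N2. Of 14 vulva and uterus genes 7 fell (1 without hira-1(-) replicate 1 and 2 without hira-1(-) replicate 2; median -0.17, and 0.06 with library totals). The growth factor gene lin-3, which induces the vulva and acts in the gonad, went the other way, with 21.7 and 20.9 CPM in hira-1(-) and 8.50 and 8.32 CPM in N2 (log2 fold change 1.34). The 3 coelomocyte markers tested were not called. The part of germ line size or of developmental timing in these results was not tested.

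Chromatin genes were mostly higher. Of 13 histone chaperones 11 rose (median 0.38), and hira-1 was among the 2 that fell. The ASF1 gene asfl-1 had 30.99 and 31.8 CPM in hira-1(-) and 16.7 and 16.8 CPM in N2 (log2 fold change 0.90), and the FACT gene hmg-4 rose by 0.65. Of 17 genes of the DREAM and NuRD repressor complexes and their partners 14 rose and none fell (median 0.52), led by the zinc-finger gene lin-13 (199.8 and 211 CPM in hira-1(-), 106 and 115 CPM in N2). Of 28 genes of histone methylation and heterochromatin 22 rose (median 0.36), among them the H3K9 methyltransferase gene met-2 (0.71) and the chromodomain gene cec-4 (0.71), which ties heterochromatin to the nuclear edge. The chromodomain gene cec-1 fell by 0.51 on the log2 scale, with 34.6 and 31.2 CPM in hira-1(-) and 46.5 and 47.1 CPM in N2. Outside the lists, 2 relatives of the H3K79 methyltransferase gene dot-1.1, chosen after their values were seen, moved far and in opposite directions. Dot-1.2 stood at 2.49 and 2.57 CPM in hira-1(-), against 0.116 and 0.120 CPM in N2, and dot-1.3 stood at 0.887 and 0.835 CPM in hira-1(-), against 8.54 and 8.28 CPM in N2.

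Cuticle genes were mainly lower. Of 135 genes of the collagen class col, 77 fell and 26 rose (median -0.76). Of the 11 collagens that set body shape 9 fell and none was called higher (median -1.197). The fall was not uniform, since the highest log2 fold change in that list was 1.24, in a member not called. Dpy-13 (F30B5.1), in which mutation shortens the body, stood at 1037 and 1092 CPM in hira-1(-) and 3063 and 2866 CPM in N2 (log2 fold change -1.48, adjusted p = 1.6e-06). Dpy-4 and dpy-5 changed by the same -1.48, and rol-1 by -1.59. Col genes with high CPM among those that fell at least 2-fold, col-73, col-71, col-138 and col-38, had log2 fold changes of -1.61, -1.48, -1.62 and -1.70. Col-73 had 1522 and 1502 CPM in hira-1(-) and 4768 and 4461 CPM in N2. Of the 7 collagens of the adult cuticle 5 fell, with bli-1 at 399.6 and 421 CPM in hira-1(-) and 858 and 965 CPM in N2 (log2 fold change -1.15) and col-19 at -1.43. The direction was not shared by all collagens: col-176 (ZC373.7) had 421 and 428 CPM in hira-1(-), against 50.2 and 66.0 CPM in N2 (log2 fold change 2.87, adjusted p = 1.1e-05).

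The 6 collagens of the annular furrows, made early in each molt cycle, were not called. They lay above N2 by 0.31 to 0.58 on the log2 scale, and the N2 replicates were apart. Dpy-7 had 159 and 154 CPM in hira-1(-), and 99.7 and 146.7 CPM in N2 (log2 fold change 0.35, and 0.64 without N2 replicate 2). Over the 6 genes N2 replicate 1 lay below N2 replicate 2 by a median of 0.54 on the log2 scale, whereas the hira-1(-) replicates differed by 0.06. A fit without an N2 replicate takes its spread from the hira-1(-) replicates alone, so its calls are not given for these genes. The abu genes, which encode proteins of the pharyngeal cuticle, showed the reverse: over 10 of them N2 replicate 1 lay above N2 replicate 2 by a median of 0.94, and the hira-1(-) replicates differed by 0.05. Of 13 abu genes tested 5 fell (median -0.89), with abu-12 at 54.02 and 63.9 CPM in hira-1(-) and 227 and 177 CPM in N2 (-1.77). Both groups are known to follow the molt cycle, and the part of the N2 replicates' difference in the results for cuticle genes was not tested. The body shape collagens differed little between N2 replicates. Over 111 col genes at 5 CPM or more, N2 replicate 1 lay above N2 replicate 2 by a median of 0.29. For these col genes hira-1(-) replicate 1 lay above replicate 2 by 0.06.

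**Figure D4:**
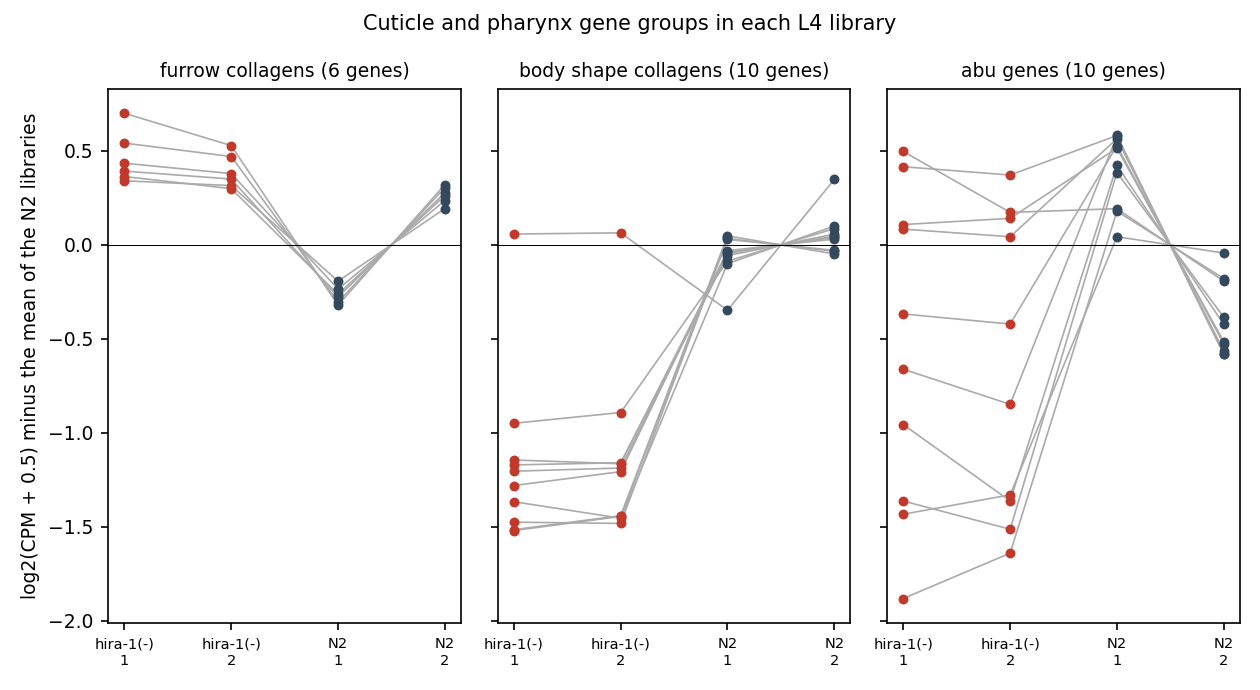
Each line is a gene, drawn as log2(CPM + 0.5) in each library minus the mean of the N2 libraries, with the hira-1(-) libraries at the left and the N2 libraries at the right. Furrow collagens and abu genes differ between the N2 replicates in opposite directions, and 9 of the 10 body shape collagens drawn lie about 1 or more below N2 in both hira-1(-) libraries.

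Genes of the molt and of the apical matrix split. Of 36 tested, 20 fell and 10 rose (5 without hira-1(-) replicate 2), with a median of -0.38. Mlt-10, needed for molting, had 272 and 286 CPM in hira-1(-) and 873 and 872 CPM in N2 (log2 fold change -1.64, adjusted p = 9.6e-07), and the cuticlin gene cut-3 was at -2.32. Lin-42, the worm period homologue that times the molts, fell by 0.85 on the log2 scale. Egg-6, a matrix receptor of the excretory duct, had 151 and 161 CPM in hira-1(-) and 72.4 and 71.2 CPM in N2 (1.12). Of 15 pharynx genes 7 fell and 2 rose (median -0.53; 5 rose without N2 replicate 1). Phat-1, a peptide of the pharyngeal gland, had 3.00 and 2.54 CPM in hira-1(-) and 14.9 and 14.2 CPM in N2 (-2.39), and its relative phat-5 had 1.81 and 2.04 CPM in hira-1(-) and 0.0776 and 0.120 CPM in N2 (4.23).

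Body wall muscle genes were lower almost throughout. Of 41 tested, 38 fell and none rose (median -0.86). Act-1 (T04C12.6), an actin of muscle, had 1127 and 1179.9 CPM in hira-1(-) and 3104 and 2715 CPM in N2 (log2 fold change -1.33, adjusted p = 4.7e-06). The calponin-like gene cpn-3 had 162 and 169.8 CPM in hira-1(-) and 469.6 and 464 CPM in N2 (-1.49, adjusted p = 1.1e-06). The 3 genes not called, unc-54, ketn-1 and unc-52, had log2 fold changes of -1.18, -1.11 and -0.39. The log2 fold changes of these genes were -0.72, -0.58 and -0.20 without N2 replicate 1, and -1.54, -1.51 and -0.57 without N2 replicate 2. Without hira-1(-) replicate 2 unc-52 was at -0.67. For the myosin heavy chain gene unc-54 the replicates lay wide apart, at 1556 and 2272 CPM in hira-1(-) and 5525 and 3130 CPM in N2.

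Neuronal genes changed less. Of 21 synaptic and pan-neuronal genes 11 fell (6 without hira-1(-) replicate 1 and 5 without hira-1(-) replicate 2) and 2 rose, and the median of -0.22 was 0.02 with library totals. Rab-3, a GTPase of synaptic vesicles, had 13.7 and 14.1 CPM in hira-1(-) and 22.3 and 23.4 CPM in N2 (log2 fold change -0.71). Of 12 genes of transmitter synthesis and transport 5 fell (2 without N2 replicate 1 or without hira-1(-) replicate 1, 1 without hira-1(-) replicate 2), led by the dopamine and serotonin enzyme gene bas-1 at -0.999. Of 26 cilia genes 6 rose (2 without hira-1(-) replicate 1 and 1 without hira-1(-) replicate 2; median 0.15), with the kinesin gene osm-3 at 1.16. Of 10 touch receptor neuron genes 2 rose and 2 fell (median -0.16, and 0.08 with library totals), and these counts changed without any 1 of the 4 libraries, to 1 higher in each case and to 1, 4, 1 and 1 lower without N2 replicate 1, N2 replicate 2, hira-1(-) replicate 1 and hira-1(-) replicate 2.

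Yolk and intestinal genes were lower. Of the 6 vitellogenin genes, which encode yolk proteins made in the intestine, 5 fell, from vit-1 (log2 fold change -1.02) to vit-3 (-3.32). Vit-3 had 48.6 and 44.7 CPM in hira-1(-) and 550.1 and 384 CPM in N2, and vit-4 had 44.8 and 42.5 CPM in hira-1(-) and 257 and 191 CPM in N2. The N2 replicates were apart here too, with replicate 1 the higher for all 6 genes. Vit-2 was not called (-1.28, adjusted p = 0.087; -0.83 and -1.64 without N2 replicate 1 and N2 replicate 2). The yolk gene regulators unc-62 and ceh-60 fell by 0.66 and 0.57 on the log2 scale. Of 21 intestine genes 15 fell and 4 rose (median -0.39). The metallothionein gene mtl-2 had 12.8 and 16.7 CPM in hira-1(-) and 50.9 and 61.7 CPM in N2 (-1.93). The gut cathepsin B genes cpr-1 (1044 and 1056 CPM in hira-1(-), 467 and 567 CPM in N2) and cpr-4 (1021 and 1174 CPM in hira-1(-), 367 and 537 CPM in N2) rose by 1.02 and 1.28, and their relative cpr-6 fell (-1.06). Over the 13 lysosomal protease genes 7 fell and 3 rose, and the median of -0.22 was 0.01 with library totals.

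Lipid and amino acid enzymes were lower. Of 22 genes of fat oxidation and lipases 17 fell and 2 rose (median -0.64). The peroxisomal oxidase gene acox-1.4 had 39.5 and 36.9 CPM in hira-1(-) and 145 and 157.2 CPM in N2 (log2 fold change -1.99, adjusted p = 7.3e-07), and the lipase gene lipl-2 was at -1.18. Of 23 genes of fatty acid synthesis 13 fell (8 without hira-1(-) replicate 2) and 4 rose. The fatty acid synthase gene fasn-1 rose by 0.47, and let-767, an enzyme of long-chain lipids, fell (-1.005). Of 14 genes of propionate breakdown and vitamin B12 12 fell (median -0.36). Acdh-1, the first enzyme of the route that burns propionate without B12, had 913 and 813 CPM in hira-1(-) and 2102 and 2178 CPM in N2 (-1.31). Of 13 genes of the methionine cycle and one-carbon metabolism 11 fell and none rose (7 fell without hira-1(-) replicate 1 and 6 without hira-1(-) replicate 2; median -0.38). Sams-1, which makes the methyl donor S-adenosylmethionine, had 381 and 378 CPM in hira-1(-) and 679 and 707 CPM in N2 (-0.87), and cbs-2 was at -1.16.

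Nuclear genes of the respiratory chain were mostly lower, by small amounts. Of 39 tested 35 fell (median -0.44, interquartile range -0.49 to -0.36). Of 23 genes of the TCA and glyoxylate cycles 19 fell (median -0.34), with the glyoxylate gene icl-1 at 350.0 and 348 CPM in hira-1(-) and 750.3 and 646 CPM in N2 (log2 fold change -0.9999). Subunit b of the ATP synthase is encoded by asb-1 and asb-2, and of these asb-1 is known as the germ line copy. The genes moved apart: asb-1 had 328 and 309.5 CPM in hira-1(-) and 218.6 and 229 CPM in N2 (0.51), and asb-2 had 389.5 and 394 CPM in hira-1(-) and 617 and 617 CPM in N2 (-0.66). Of 22 genes of glycolysis and gluconeogenesis 13 fell (6 without hira-1(-) replicate 1 and 5 without hira-1(-) replicate 2) and 4 rose, and the median of -0.17 was 0.07 with library totals. The GAPDH genes gpd-1 and gpd-4 rose by 1.38 and 1.41. Proteasome genes (6 of 31 lower, median -0.08, and 0.16 with library totals) and chaperonin genes (4 of 8 lower, median -0.16, and 0.07 with library totals) stayed near the centre. Without hira-1(-) replicate 1 or hira-1(-) replicate 2 none of either list was called lower, and without N2 replicate 1 14 proteasome genes were.

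Stress genes did not move as a block. Of 15 genes of endoplasmic reticulum stress 11 fell (7 without hira-1(-) replicate 1) and none rose (median -0.30). Of 19 heat shock genes 7 rose and 6 fell (3 and 2 fell without hira-1(-) replicate 1 and replicate 2). Sip-1 (F43D9.4), a small heat shock protein known from germ line and embryos, had 217 and 233 CPM in hira-1(-) and 33.9 and 25.7 CPM in N2 (log2 fold change 2.92), and the inducible gene hsp-70 fell (-1.33). Of 11 genes of hypoxia and hydrogen sulfide 7 fell, led by cysl-2, a cysteine synthase family target of the hypoxia factor HIF-1, with 53.4 and 58.2 CPM in hira-1(-) and 205 and 226 CPM in N2 (-1.95). Of 19 genes of oxidative stress 7 fell (4 without hira-1(-) replicate 1 and 3 without hira-1(-) replicate 2), and the median of -0.11 was 0.13 with library totals. Among 13 metal response genes numr-1, a nuclear protein induced by metals, had 7.34 and 6.61 CPM in hira-1(-) and 0.310 and 0.320 CPM in N2 (4.45, adjusted p = 2.5e-06), and 3 rose and 6 fell over the list. A near copy of numr-1 exists, so reads may be divided between the copies. Of 12 genes of osmotic stress and wounding 6 fell (3 without hira-1(-) replicate 2) and 1 rose, and of 9 genes of mitochondrial stress none rose and 2 fell (0 without hira-1(-) replicate 1 and 1 without hira-1(-) replicate 2).

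Genes of the intracellular pathogen response, a set induced by microsporidia, viruses and proteotoxic stress, were higher. Of 12 tested 8 rose and none fell (median 1.39). Pals-14 had 9.90 and 9.42 CPM in hira-1(-) and 0.388 and 0.520 CPM in N2 (log2 fold change 4.40, adjusted p = 1.6e-06), and pals-6 had 9.83 and 9.89 CPM in hira-1(-) and 0.621 and 0.680 CPM in N2 (3.91). The F-box gene fbxa-158 had 10.7 and 10.02 CPM in hira-1(-) and 0.272 and 0.120 CPM in N2 (5.68, and 6.37 without N2 replicate 1). The ubiquitin ligase gene cul-6 rose less (0.86). The paired regulators of the response, pals-22, which represses it, and pals-25, which drives it, were not called (log2 fold changes 0.02 and -0.27; pals-22 was at -0.01 without N2 replicate 1 and at -0.04 without hira-1(-) replicate 1). Over the whole pals class 15 of 27 genes rose and none fell (median 0.83). The genes eol-1 (3.86) and F15D4.5, chosen after their values were seen, rose alongside. F15D4.5 stood at 148 and 152.2 CPM in hira-1(-) and 1.44 and 2.08 CPM in N2 (6.42).

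Signalling and timing genes gave smaller and mixed changes. Of 11 insulin pathway genes 5 rose and 3 fell, and the receptor gene daf-2 rose by 0.63 on the log2 scale. Of 16 Wnt pathway genes 6 rose and 8 fell (4 without hira-1(-) replicate 1 and 5 without hira-1(-) replicate 2). The ligand gene mom-2 rose by 1.36 and the beta-catenin genes wrm-1 and sys-1 by 1.00 and 0.89, while the Frizzled gene mig-1 fell (-1.03). Of 15 TGF-beta genes 3 rose and 3 fell (1 rose without hira-1(-) replicate 2 and 7 fell without N2 replicate 2; median -0.13, and 0.11 with library totals). Of 12 heterochronic genes, which time larval cell fates, 4 rose and 1 fell (2 rose without hira-1(-) replicate 1 or replicate 2, and 3 fell without N2 replicate 2; median 0.06). Lin-41, which also acts in oocytes, had 85.8 and 95.6 CPM in hira-1(-) and 23.7 and 21.1 CPM in N2 (2.01). Of 12 dosage compensation genes 5 rose (3 without hira-1(-) replicate 2) and 2 fell (0 without N2 replicate 2, hira-1(-) replicate 1 or hira-1(-) replicate 2). Of 8 seam cell genes 2 rose and 6 were not called.

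Gene classes (genes sharing a name before the hyphen) were ranked by median over 209 classes with at least 8 tested members. The highest medians were those of puf (1.47), ssp (1.19), fipr (1.00), msp (0.98), fbxb (0.91), nspd (0.84), pals (0.83), lido (0.82), his (0.76) and srh (0.73). The puf class of RNA-binding proteins had 7 of 9 members higher, and the somatic member puf-9 was lower (-0.52). Of 62 his genes, a class of histone genes that includes the tested H3.3 genes given above, 33 rose and 5 fell. Most core histone mRNAs lack a poly(A) tail, copies are near-identical, and the 62 genes had 48 distinct sets of values. The lowest medians were those of nspc (-2.54), abu (-0.89), phat (-0.87), scl (-0.83), col (-0.76), mfsd (-0.73), hot (-0.71), idpp (-0.69), nas (-0.68) and grl (-0.62). Of 18 nspc genes, encoding nematode-specific peptides of unknown function, 17 fell and none rose, over a range of -0.85 to -4.04. Nspc-14 had 7.54 and 5.91 CPM in hira-1(-) and 50.3 and 48.9 CPM in N2. The fbxa class of F-box genes was uneven, with 63 higher and 17 lower of 161.

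Single falls are given for genes with a mean of at least 5 CPM in N2, and larger fitted falls of rarer genes are left out of this order. Pud-4 (F15E11.12) had 1.36 and 1.07 CPM in hira-1(-) and 143 and 134 CPM in N2 (log2 fold change -6.83, SE 0.11, adjusted p = 1.0e-08), and pud-3 had 8.12 and 6.98 CPM in hira-1(-) and 455 and 431 CPM in N2 (-5.87). Pud genes are named for proteins that accumulate in mutants of the insulin receptor gene daf-2. Pud-1.1, pud-1.2, pud-2.1 and pud-2.2 were at -4.32, -4.18, -4.02 and -4.02, and the values of pud-2.1 and pud-2.2 were identical in all 4 libraries, so these copies cannot be told apart. At 5 CPM or more the next falls outside the pud genes were gtnt-17 (-4.82), the glycosyltransferase gene gly-1 (-4.79, and -4.08 and -6.29 without hira-1(-) replicate 1 and replicate 2), gtnt-18 (-4.75), the cytochrome P450 gene cyp-14A2 (-4.57), nspc-18 (-4.04) and nspc-10 (-3.45). Among genes with a sequence name only and at least 5 CPM in N2, K06H6.2 (0.102 and 0.134 CPM in hira-1(-), 20.6 and 9.92 CPM in N2; -6.96), F45D11.1 (-4.86), K06H6.1 (-4.59) and F26D2.16 (-4.27) fell most. Without N2 replicate 1 K06H6.2 was at -6.35, without hira-1(-) replicate 1 K06H6.1 was at -5.17, and without hira-1(-) replicate 2 F26D2.16 was at -4.92. E01G4.6, among the 10 genes with the highest CPM that fell at least 2-fold, was at 848 and 903 CPM in hira-1(-) and 3270.1 and 3208 CPM in N2 (-1.89).

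Several genes were at 0 in both N2 libraries. Msd-1, which encodes a protein with a major sperm protein domain, had 18.6 and 20.6 CPM in hira-1(-) and was at least 165.5-fold higher against a floor of 3 counts per library. Spp-9, a saposin-like gene, had 6.93 and 3.88 CPM in hira-1(-) (at least 45.6-fold higher), the acyltransferase-like gene oac-11 had 5.08 and 5.45 CPM (at least 44.5-fold higher), and C17A2.7 had 6.07 and 5.11 CPM (at least 47.3-fold higher). Estimated hira-1(-) counts of msd-1 (543.71 and 615.98), spp-9 and oac-11 were not all whole numbers. Reads of these genes may thus be divided with other genes by the counting model, which the floor does not cover. With 1 count in 1 N2 library and none in the other, the hira-1(-) over N2 ratio was 285 for gtnt-9 (exact 95% interval 50.9 to 11300), 413 for C17A2.6 (73.8 to 16300), 295 for C17A2.4 (52.6 to 11700) and 630 for ZK218.7 (113 to 24900). Higher counts in N2 stood behind gtnt-13 (log2 fold change 5.36), the transporter gene pgp-8 (4.06), oac-15 (4.03, and 4.78 without N2 replicate 2) and the RNase H gene rnh-1.3 (3.95). Pgp-8 had 23.9 and 25.4 CPM in hira-1(-) and 1.51 and 1.44 CPM in N2. Genes near 0 in 1 genotype alone were few: of 16043 tested, 62 had at most 3 counts in each N2 library and at least 30 in each hira-1(-) library. The reverse held for 7 genes, namely C16C8.19, D2030.11, clec-138, K11C4.8, fbxa-147, Y45G12C.11 and gtnt-57, named after their values were seen. These limits are unscaled counts and stand for unlike CPM in the genotypes (TMM factors 1.086 and 1.085 in hira-1(-), 0.919 and 0.923 in N2). D2030.11 was at 0 in both hira-1(-) libraries and at 2.48 and 2.84 CPM in N2, at least 26.2-fold lower. The N2 counts of D2030.11 were likewise not whole numbers (63.88 and 70.92).

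Genes changed at least 2-fold were also placed by their neighbours. Gene order was taken from a reference table of another assembly, without coordinates, and a run is a series of neighbouring tested genes that were all called and changed at least 2-fold in 1 direction. Of 1493 genes placed in that order and higher at least 2-fold, 38.7% lay in runs of 2 or more, as did 29.6% of 1121 genes lower at least 2-fold. The shares of all tested genes called at 2-fold were 9.47% higher and 7.13% lower, and the share in runs that would arise by chance was not computed. Runs of 4 or more genes numbered 30 for higher genes and 12 for lower genes. The longest run was of 11 histone genes (his-15 to his-43) with 6 distinct sets of values. The next, from bath-47 to C08E3.1, held 10 genes, 7 of them F-box genes of the fbxa class. A run of 8 genes from oac-4 to oac-10 held gtnt-9, C17A2.7, C17A2.6, C17A2.4 and oac-11, and its members ranged from oac-10 (30.2 and 32.7 CPM in hira-1(-), 3.80 and 3.56 CPM in N2) to genes at 0 in N2. Runs of 7 genes were M151.7 to F19B10.2, mes-1 to ule-5 and Y26D4A.3 to pals-4, and the mes-1 run held dot-1.2. F19B10.2 was not called without N2 replicate 1, hira-1(-) replicate 1 or hira-1(-) replicate 2 (adjusted p = 0.15, 0.085 and 0.11), nor was pals-4 without N2 replicate 2, hira-1(-) replicate 1 or hira-1(-) replicate 2 (adjusted p = 0.25, 0.12 and 0.17), and the runs are then shorter by a gene. Among runs of 5, ZK218.1 to ZK218.11, chosen after its values were seen, lies next to genes for the 5S ribosomal RNA in the table. There ZK218.5 had 25.18 and 21.6 CPM in hira-1(-) and 0.155 and 0.320 CPM in N2.

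The longest run of lower genes had 9 members, from pud-1.2 to clec-209, and held all 6 pud genes named above with srbc-15 and irld-53. Clec-209, a C-type lectin gene, was the least changed of them (log2 fold change -1.24), with 650.1 and 741 CPM in hira-1(-) and 1837 and 1452 CPM in N2. The nspc genes supplied 2 runs, nspc-12 to F19H6.5 with 6 genes and nspc-16 to nspc-20 with 5, and nspc-12 (-2.54, and -7.45 without hira-1(-) replicate 1) was not called without hira-1(-) replicate 2 (adjusted p = 0.07). Runs of 5 were also col-131 to C39E9.7, nas-20 to col-157 and Y51H7C.13 to lips-14. Neighbouring copies can share reads, and 125 tested genes (66 of them called) had the same 4 values as another gene. Use of strand in the counting is not stated, and overlapping neighbours or antisense partners may also share reads.

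**Figure D5:**
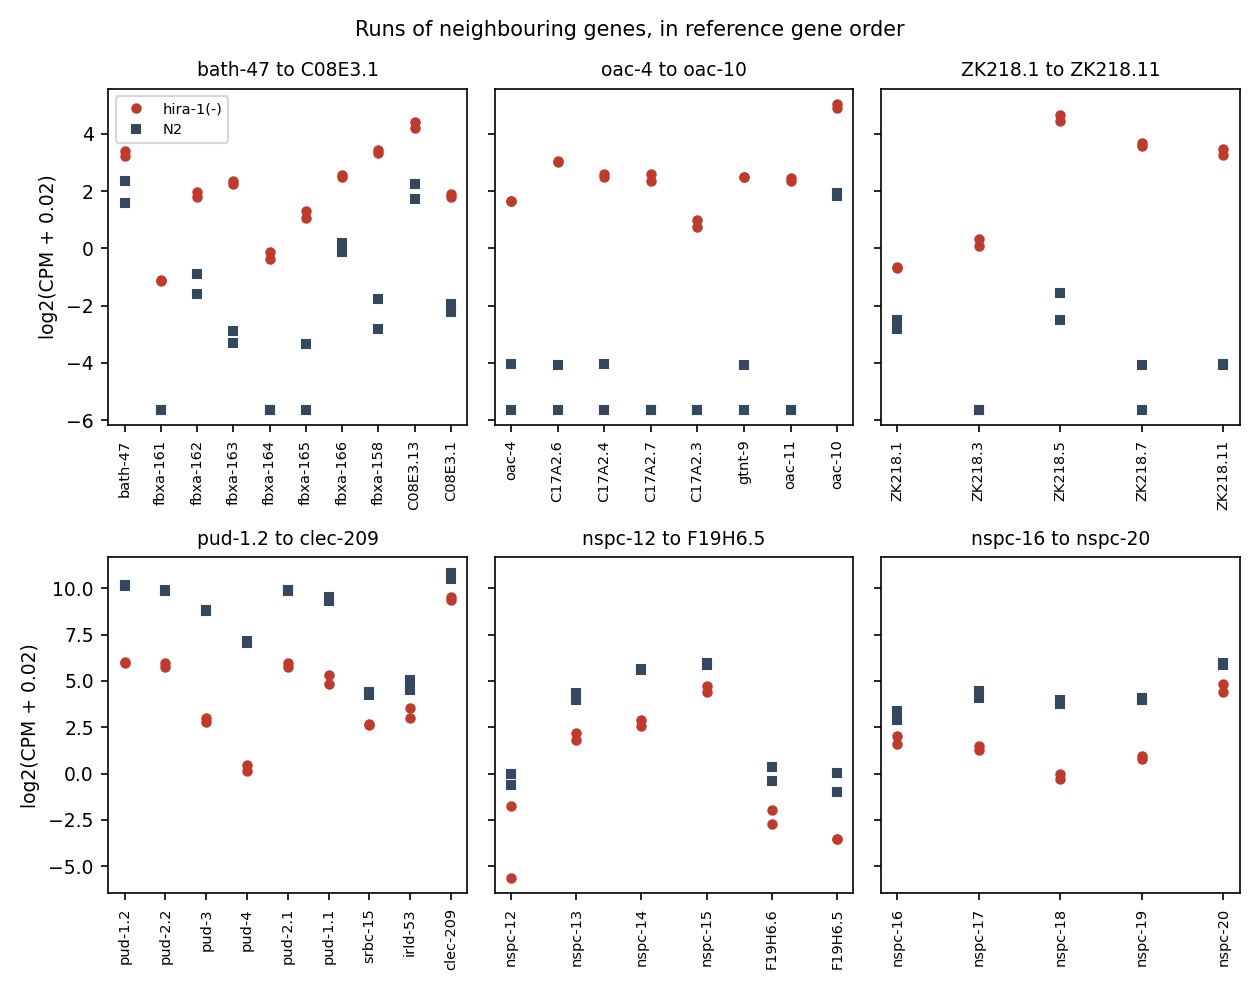
Each panel is a run of neighbouring genes in reference order, with log2(CPM + 0.02) of each gene in the 2 hira-1(-) libraries (circles) and the 2 N2 libraries (squares); the lowest squares are genes at 0. In the upper panels every gene is higher in hira-1(-), including 8 genes from oac-4 to oac-10, and in the lower panels every gene is lower, including 9 genes from pud-1.2 to clec-209.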

How the data were processed

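The authors deposited estimated counts made with RSEM and a table of log2 FPKM, read here as log2(FPKM + 1) because it is 0 where the count is 0 and never below 0. The submitters' processing notes list RSEM 1.2.15, Bowtie 1.0.1, SAMtools 0.1.19 and, as genome build, ce10. Of 18 library columns, 8 matched a sample, and the other 10 stayed unused, the third L4 replicates among what is not analysed here. Names and gene order came from a table of assembly WBcel235 (44100 of 45461 rows matched), so no coordinates are given. Counts were rounded and tested on the 4 L4 libraries with edgeR 4.0.16 (R 4.3.3): TMM, the default expression filter (minimum count 10, total 15), a robust quasi-likelihood fit with 2 residual degrees of freedom, Benjamini-Hochberg threshold 0.05. The biological coefficient of variation was 7.10%. Intervals and the floor of 3 counts cover counting error only. A test on simulated counts of 15910 genes recovered 84.7% of the 2-fold changes and 71.7% of the 1.5-fold changes and called 6 unchanged genes. The simulation changed few genes, as many up as down, with a common dispersion for all genes and no shift in scaling between genotypes. Its rates do not measure the error of the real comparison, in which 57.3% of genes were called. The rule for named genes took, per direction and at 5 CPM or more with no overlap, the 12 largest changes, 4 more with a sequence name only and the 10 with the highest CPM among 2-fold changes, then the 4 members of each list with the smallest adjusted p, hira-1, the H3.3 genes, and the 10 extreme classes and 5 longest runs per direction. The text gives part of them. Members and lists were chosen with earlier results of these data known. Replicate numbers were checked for pairing. Alternatives were RLE scaling, library totals, other filters, DESeq2 1.42.0, limma 3.58.1 on deposited log2 FPKM, the adult libraries added, a replicate block, a 1.5-fold minimum, and each library left out. Planned promoter motifs were not searched.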

Additional observations from a re-analysis of the deposited data

How the results depend on the processing

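With library totals 7092 genes were called higher and 2745 lower. Limma on deposited log2 FPKM gave 6648 higher, 2519 lower and 1746 at 2-fold or more. The fit with the adult libraries, also with TMM, gave 5951 higher and 3782 lower, and its median gene was at 0.10. Against a 1.5-fold minimum 2965 were called (1592 higher, 1373 lower) and hira-1 (-0.62) was not (adjusted p = 0.48). DESeq2 called 7159. With the replicate block 8734 were called. No pairing by replicate number was seen across genes (correlation of deviations -0.05), which does not settle whether samples were handled in pairs. The block ended no call named above except that of pals-4. Leaving out 1 library gave 6340 to 9899 calls (3181 to 4928 higher, 3154 to 4971 lower, 2396 to 2904 at 2-fold) and -0.71 to -0.54 for hira-1. The lone library is then assumed to vary like the other genotype's, and the hira-1(-) replicates were the closer pair. Library totals and limma turned list medians positive: 0.0038 (sperm function, library totals alone), 0.0626 and 0.0291 (vulva), 0.0218 and 0.0209 (synapse), 0.0770 and 0.0347 (touch), 0.107 and 0.0800 (coelomocyte), 0.0142 and 0.0197 (lysosomal proteases), 0.0678 and 0.0674 (glycolysis), 0.156 and 0.164 (proteasome), 0.0742 and 0.0826 (chaperonin), 0.132 and 0.146 (oxidative stress), 0.106 and 0.0959 (TGF-beta). His-70 was at 0.0822 and 0.0807. With the adult libraries the proteasome median was 0.0197. Leaving out 1 library gave list medians of -0.0073 to 0.0525 for mitochondrial stress, and log2 fold changes of -0.0422 to 0.0730 for the gene pals-22. Of 2761 values for named genes, 2694 kept direction and call, 40 lost and 23 gained a call, and 4 reversed. The fit without ribosomal RNA genes, chosen after seeing the data, gave 9198 calls. Genes under a few counts per library are limited by depth.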

Other observations

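Classes with F-box, BTB or MATH domain proteins differed, and they were chosen after their values were seen. Of 26 fbxc F-box genes 15 rose and 1 fell (median 0.62), and of 35 bath genes (BTB and MATH domain proteins) 21 rose and 2 fell. Of 32 math genes 9 rose and 4 fell, a share near that of all genes (28.9% higher), and of 15 btb genes 8 rose and 3 fell. The 15 tested lido genes held 11 that rose and none that fell, with a largest log2 fold change of 3.27. All 8 mcm genes, which encode the replicative helicase and its partners, rose, between 0.28 and 0.70 on the log2 scale. Among tested pseudogenes 170 of 603 rose and 127 fell (median 0.07), against 4406 higher and 4353 lower of 15062 protein-coding genes (median -0.01). Of 12 tested long noncoding RNAs 5 rose and 2 fell. Values of pseudogenes and near-identical copies are uncertain, since they can share reads with related genes.

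Some classes held members at both ends. In the fipr class of peptides 10 of 18 rose and 5 fell, with fipr-24 at 3.82 and 4.18 CPM in hira-1(-) and 0.0388 and 0.480 CPM in N2, and fipr-21 at 96.8 and 96.8 CPM in hira-1(-) and 261 and 300.3 CPM in N2. In the scl class 7 of 14 fell and 3 rose, with scl-3 at 2.29 and 1.80 CPM in hira-1(-) and 9.08 and 10.7 CPM in N2, and scl-24 at 3.51 and 3.17 CPM in hira-1(-) and 0.310 and 0.0400 CPM in N2. These genes were chosen after their values were seen.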
